A study of Mus musculus with 16 samples.

Results

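A block of 10 Mb on mouse chromosome 2 (mm10 genome) held 103 of the 38924 gene IDs measured in this series. Members were the genes whose annotated start lay in the block, from BC052040 at 115.58 Mb to Sema6d at 124.09 Mb, whose symbol did not begin with Rpl or Rps, and whose mean over all 16 libraries was at least 0.5 CPM (read counts scaled to the same library total). The block was chosen by the difference between RGS4KO and WT in these same libraries, so every comparison of the genotypes along it is a description and not a test of the block. The annotation places 194 genes of the tables there, and the 91 that are not members were under 0.5 CPM, among them 15 with enough counts to be tested. All 103 members passed the filter on low counts and were among the 18350 genes tested. By annotation 94 members were protein coding, 4 were long intergenic RNAs, 3 were processed transcripts and 2 were processed pseudogenes.

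The 4 groups held 4 libraries each, which were RGS4KO libraries after CFA (numbers 13 to 16), WT libraries after CFA (9 to 12), RGS4KO naive libraries (5 to 8) and WT naive libraries (1 to 4). All came from the ventral posterolateral thalamus, which passes touch and pain signals to the cortex, and each pooled punches of 2 mice. CFA is not written out in the labels; in studies of pain the letters usually mean complete Freund's adjuvant, injected to cause inflammation. Per the series text, a floxed Rgs4 gene was cut by Cre delivered with an adeno-associated virus, whereas the sample labels give only the genotype RGS4 KO, so which cells lost the gene is not stated. The sources used here do not give the promoter, the time after CFA, or the age and strain of the mice. RGS4 is a protein that speeds the switching off of G proteins.

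Neighbouring genes on a chromosome need not share a function. This block is the mouse counterpart of a stretch of human chromosome 15 and holds genes of unlike roles, among them a cluster of group IV phospholipase A2 genes, kinetochore and DNA repair genes, the immune gene B2m and the neuronal scaffold gene Map1a. Group IV phospholipases release or transfer fatty acids of membrane lipids. PLA2G4E, the product of Pla2g4e, is a calcium-dependent N-acyltransferase that makes precursors of N-acylethanolamines, the lipid class to which anandamide belongs.

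The Rgs4 gene itself, which lies on another chromosome, was still expressed in the libraries labelled RGS4KO, and its level did not pass a test between genotypes. After CFA it averaged 84.1 ± 5.5 CPM in RGS4KO and 89.3 ± 6.66 CPM in WT libraries (SD, n = 4 each; exact two-sided permutation p = 0.229). In naive mice it averaged 81.3 ± 2.74 CPM in RGS4KO and 80.9 ± 3.66 CPM in WT libraries (exact two-sided permutation p = 0.886). The groups are therefore called by their labels. Libraries held 24.4 M to 78.8 M gene counts in RGS4KO after CFA, 42.2 M to 53.9 M in WT after CFA, 18.1 M to 43.7 M in RGS4KO naive and 36.4 M to 54.7 M in WT naive mice. WT naive library 2 stood apart in that 4 Y-linked genes summed to 1.29 CPM there, against at most 0.173 CPM in any other library, while Xist was between 560 and 750 CPM in all 16. The labels name female mice and the protocol male mice. Markers of oligodendrocytes, astrocytes, microglia and thalamic relay neurons were detected in every group, and none of the 5 marker lists had a gene at 0. Of the 7 tested relay neuron markers, Cbln1 was called by genotype after CFA (log2 change -0.45, RGS4KO over WT) and in naive mice (0.47), and Ntng1 in naive mice (0.17), while 0 markers of the other lists were called. The score of neurons that border the thalamus (mean log2 CPM of 10 midbrain markers) spread most, with group means of 3.91 in RGS4KO CFA, 4.52 in WT CFA, 3.68 in RGS4KO naive and 3.53 in WT naive libraries. The part of these markers in the values below was not tested beyond a fit with 3 marker scores. In bulk tissue, fewer cells of a type and less RNA per cell cannot be told apart.

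Genes were called at an adjusted p under 0.05 in edgeR's quasi-likelihood test over all tested genes. After CFA, 15 members were called between RGS4KO and WT, against 1.6% of all tested genes, with 5 higher (background 0.649%) and 10 lower (background 0.954%). In naive mice 6 members were called, against 1.45% of all tested genes, with 1 higher (background 0.698%) and 5 lower (background 0.752%). In the average of both genotype contrasts 23 members were called, against 3.73% of all tested genes, with 9 higher (background 1.74%) and 14 lower (background 1.99%). Because these contrasts chose the block, nothing is read from those shares. Of the members, 4 were called in the same direction in both treatments, namely Pla2g4e, Knstrn, Adal and Mapkbp1, all lower in RGS4KO. In 16 fits that each left out 1 library, Mapkbp1 lost its call after CFA in 12. The naive call was lost in 4 fits for Pla2g4e, 4 for Knstrn, 8 for Adal and 6 for Mapkbp1. All 15 members called after CFA had the same sign of change in naive mice, and for 14 of them the naive change was the smaller. The exception was Mapkbp1, with a log2 change of -0.21 after CFA and -0.23 in naive mice. The 15 were picked for their change after CFA, which by itself favours a smaller naive change. Of the 6 members called in naive mice, Mapkbp1, Rpap1 (-0.21 naive, -0.17 after CFA) and Ttbk2 (0.14 and 0.01) had the larger change there. Pla2g4e, Knstrn and Adal had the smaller change there. The median size of the log2 change was 0.12 over members after CFA, against 0.05 over all tested genes of at least 0.5 CPM, and 0.10 against 0.06 in naive mice. The signed median was -0.01 after CFA and -0.02 in naive mice, so the block did not shift one way as a whole.

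**Figure D1:**
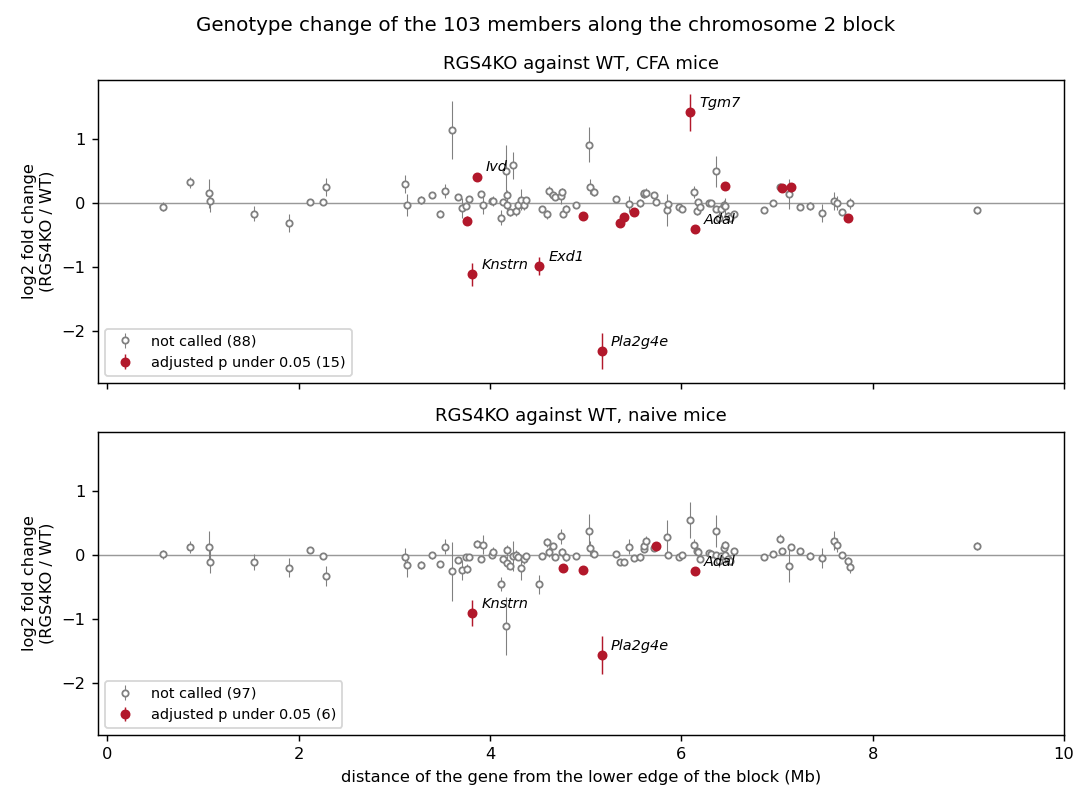
Log2 fold change of RGS4KO over WT for each of the 103 members (points; bars are standard errors) against the distance of the gene's start from the lower edge of the block in Mb, after CFA (top) and in naive mice (bottom). Filled points are the 15 members called after CFA and the 6 called in naive mice, and Pla2g4e is the lowest of them in both.

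Neither the members nor the called members were spread evenly along the block. Called members lay between Srp14 at 118.48 Mb and Bloc1s6 at 122.74 Mb, within the stretch from 3 Mb to 8 Mb above the lower edge. That stretch holds 93 of the 103 members, and 24.7% of them were called on average, against 22.3% of the whole block. The few members outside it cannot show whether calls are rarer there. Of the 9 members in the lowest 3 Mb, 0 were called by genotype, and Sema6d, the only member past 8 Mb, was not called either. Higher and lower members were interspersed, and of the 14 pairs of neighbouring members called after CFA, 6 changed direction. In the flanks, 0 of 38 genes in the 10 Mb below the block were called in either treatment or on average. In the 10 Mb above it, 8 of 119 genes were called after CFA, 1 in naive mice and 10 on average. Genotypes did not overlap, library by library, for 28 members after CFA and 16 in naive mice, against 8.03% and 7.23% of all tested genes. They did so in both treatments and in the same direction for 7 members, against 1.29% of all tested genes. Lower in RGS4KO were 4 of them, Pla2g4e, Knstrn, Exd1 and Adal (background 0.698%), and higher were 3, Ivd, Cdan1 and Spg11 (background 0.589%).

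**Figure D2:**
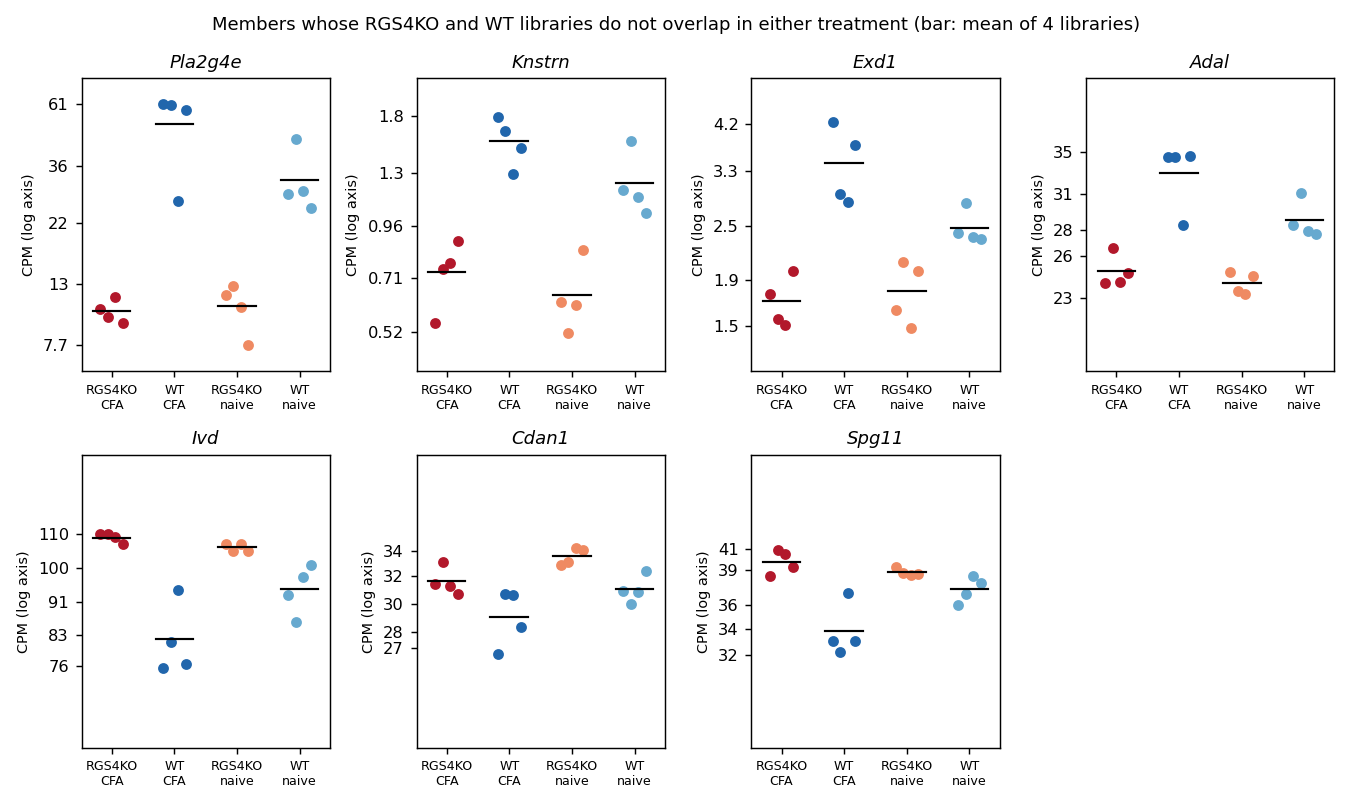
CPM (log axis) of the 7 members whose RGS4KO and WT libraries did not overlap in either treatment. Each point is a library, columns are RGS4KO CFA, WT CFA, RGS4KO naive and WT naive, and bars are means of 4 libraries. Pla2g4e lies near 10 CPM in all RGS4KO libraries, while its WT libraries run from 25 to 60.9 CPM.

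Pla2g4e (chr2:120166412-120245335, minus strand) had the largest difference of any member. Its level was 10.5, 9.83, 11.7 and 9.35 CPM in RGS4KO CFA libraries 13 to 16, against 60.9, 60.6, 26.5 and 58 CPM in WT CFA libraries 9 to 12. In naive mice it was 11.9, 12.8, 10.7 and 7.7 CPM in RGS4KO libraries 5 to 8, against 28.2, 45.4, 28.9 and 25 CPM in WT libraries 1 to 4. All 8 RGS4KO libraries were thus low and close together, and all 8 WT libraries were higher but unlike one another. The log2 change was -2.32 (SE 0.28) after CFA and -1.57 (SE 0.30) in naive mice. Pla2g4b, its neighbour in the same phospholipase cluster, went the other way in its values, at 2.64 ± 0.31 CPM in RGS4KO and 1.36 ± 0.601 CPM in WT libraries after CFA. In naive mice Pla2g4b was at 2.87 ± 0.377 CPM in RGS4KO and 2.26 ± 0.756 CPM in WT libraries, and it was called in neither treatment nor on average. Its reads are uncertain, because the gene overlaps Sptbn5 in position. These are the only members among 5 listed genes of the cluster. Of the group IV genes elsewhere, Pla2g4a, the arachidonate-releasing enzyme, had log2 changes of -0.02 after CFA and 0.33 in naive mice, and Pla2g4c had -0.34 and -0.26. Neither was called.

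RefSeq promoter windows (GRCm38.p6, the build of mm10) were given for 90 members, in 104 windows of 300 bases. The 250 bases before the start are shown for the lower members with the largest changes in both treatments, Pla2g4e (chr2:120245336-120245585, minus strand) and Knstrn (chr2:118813753-118814002, plus strand), and for the most abundant higher member without overlap, Ivd (chr2:118861744-118861993, plus strand). Capitals mark matches to 3 motifs on either strand. The motif TATAAA is the core of the TATA box. The motif CCAAT, written ATTGG where it lies on the other strand, is the CCAAT box. The motif CCGGAAG is a core bound by ETS factors. Motifs may overlap at their ends.
Pla2g4e: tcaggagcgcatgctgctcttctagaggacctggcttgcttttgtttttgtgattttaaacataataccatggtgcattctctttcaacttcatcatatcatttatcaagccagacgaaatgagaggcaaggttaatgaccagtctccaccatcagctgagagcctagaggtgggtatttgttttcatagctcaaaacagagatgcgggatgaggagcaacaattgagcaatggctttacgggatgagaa
Knstrn: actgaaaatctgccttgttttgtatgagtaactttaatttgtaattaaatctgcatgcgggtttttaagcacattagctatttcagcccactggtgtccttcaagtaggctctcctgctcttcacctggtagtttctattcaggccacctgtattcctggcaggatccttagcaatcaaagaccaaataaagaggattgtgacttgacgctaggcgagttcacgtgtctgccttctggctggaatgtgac
Ivd: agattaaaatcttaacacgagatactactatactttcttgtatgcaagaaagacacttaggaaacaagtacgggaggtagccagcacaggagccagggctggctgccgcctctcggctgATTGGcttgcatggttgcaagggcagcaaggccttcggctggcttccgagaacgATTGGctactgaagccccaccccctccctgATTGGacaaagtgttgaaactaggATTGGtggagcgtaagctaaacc
None of these letters was in the stretches of Pla2g4e and Knstrn shown, while Ivd held ATTGG more than once. Over whole windows, CCAAT was in 36.5% of the windows of members and in 37.4% of all 32851 windows. TATAAA was in 4.81% of the windows of members and 13.6% of all windows, and CCGGAAG in 16.3% and 8.86%. Among the 25 windows of members called by genotype, 9 held CCAAT, 1 held TATAAA and 3 held CCGGAAG. These matches are descriptions and were not tested.

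Of the 10 listed members for cell division and DNA repair, 1 was lower after CFA and in naive mice, and 2 were higher and 2 lower on average. Beside this and later role lists, 0.649% of all tested genes were higher and 0.954% lower after CFA. Those shares were 0.698% and 0.752% in naive mice, and 1.74% and 1.99% on average. Over the block they were 4.85% and 9.71%, 0.971% and 4.85%, and 8.74% and 13.6%. The lists order members by role, and nothing is read from their counts. Knstrn (kinastrin, a spindle and kinetochore protein) was the lower one. It was at 0.547, 0.746, 0.775 and 0.878 CPM in RGS4KO CFA libraries, against 1.79, 1.65, 1.29 and 1.5 CPM in WT CFA libraries. Without CFA it was at 0.62, 0.519, 0.607 and 0.836 CPM in RGS4KO libraries, against 1.18, 1.56, 1.13 and 1.03 CPM in WT libraries. Every RGS4KO library lay below every WT library, and the log2 changes were -1.12 (SE 0.18) after CFA and -0.91 (SE 0.21) in naive mice. The gene is lowly expressed, at 0.202 CPM per kb of exon, and overlaps Gm14091 in position. Haus2, a subunit of the augmin complex that branches spindle microtubules, was higher on average, at 25.2 ± 0.761 CPM in RGS4KO CFA, 22.6 ± 1.41 CPM in WT CFA, 27.2 ± 1.22 CPM in RGS4KO naive and 24.7 ± 0.984 CPM in WT naive libraries. Cdan1, which encodes codanin-1, a protein that binds a histone chaperone, was also higher on average. Cdan1 lost that call in 12 of 16 fits that left out 1 library, and it overlaps Stard9 and Ttbk2 in position. Its libraries were at 30.7 to 33.1 CPM in RGS4KO CFA, 26.6 to 30.7 CPM in WT CFA, 32.9 to 34.2 CPM in RGS4KO naive and 30.0 to 32.4 CPM in WT naive mice, so the separation was narrow. Bub1b, a spindle checkpoint kinase named after its values were seen, varied within groups, at 3.7 to 6.41 CPM in RGS4KO CFA and 0.768 to 4.66 CPM in WT CFA libraries, and was not called.

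Exd1 was 1 of 3 members listed for sperm and meiosis, and in mouse its product takes part in the piRNA pathway of the germ line. It was at 1.77, 1.56, 1.51 and 1.99 CPM in RGS4KO CFA libraries, against 4.24, 2.94, 2.83 and 3.78 CPM in WT CFA libraries. Naive levels of Exd1 were 1.63, 2.08, 1.49 and 1.99 CPM in RGS4KO libraries, against 2.41, 2.81, 2.36 and 2.34 CPM in WT libraries. The genotypes did not overlap in either treatment, with a wider gap after CFA, and the log2 changes were -0.99 (SE 0.14) and -0.46 (SE 0.15). The naive change was not called. Catsper2, a subunit of the sperm calcium channel, had log2 changes of -0.23 after CFA and -0.10 in naive mice, and Fsip1, a protein of the sperm tail sheath, had -0.03 and -0.16. Neither was called.

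Among 13 listed members for metabolism and mitochondria, 1 was higher and 2 lower after CFA, and 1 was lower in naive mice. Ivd, the isovaleryl-CoA dehydrogenase of leucine breakdown in mitochondria, was higher. It was at 109.9, 109.9, 109 and 107 CPM in RGS4KO CFA libraries, against 75.6, 81.4, 94.1 and 76.5 CPM in WT CFA libraries. Naive levels of Ivd were 107, 105, 107 and 105 CPM in RGS4KO libraries, against 92.7, 86, 97.6 and 101 CPM in WT libraries. The 8 RGS4KO libraries spanned only 105 to 109.9 CPM and all lay above the WT libraries. The log2 changes were 0.41 (SE 0.06) after CFA, which was called, and 0.17 (SE 0.06) in naive mice, which was not. Adal, an adenosine deaminase-like enzyme that removes methylated adenine nucleotides, was lower. It was at 24, 26.6, 24.1 and 24.7 CPM in RGS4KO CFA libraries, against 34.5, 34.5, 28.4 and 34.6 CPM in WT CFA libraries, and at 23.3 to 24.8 CPM in RGS4KO naive against 27.7 to 31.1 CPM in WT naive libraries. Its log2 changes were -0.41 (SE 0.06) and -0.26 (SE 0.06), and it overlaps Lcmt2 in position. Ganc, a neutral alpha-glucosidase, was lower after CFA, at 17.3 to 18.2 CPM in RGS4KO and 19.8 to 22.3 CPM in WT libraries. Ganc overlaps Tmem87a and Capn3 in position, and reads of opposite strands cannot be told apart in these libraries. The creatine genes Gatm, which makes the creatine precursor, and Ckmt1, the mitochondrial creatine kinase, were not called in any of the 6 contrasts. Of the 5 tested genes of creatine synthesis and use, 0 were called by genotype.

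Of 13 listed members for transcription and chromatin, 1 was higher and 1 lower after CFA and 1 was lower in naive mice. Mfap1b was the higher one, and its neighbour Mfap1a, which encodes the same spliceosome protein, went the other way in its values. Mfap1b averaged 14.9 ± 0.492 CPM in RGS4KO CFA, 12.3 ± 0.632 CPM in WT CFA, 14.6 ± 0.675 CPM in RGS4KO naive and 13.1 ± 0.639 CPM in WT naive libraries. Mfap1a averaged 14.9 ± 0.543, 17.1 ± 1.01, 15 ± 1.09 and 15.8 ± 0.965 CPM in the same groups and was not called. The sum of the pair was level across groups, at 29.8 ± 0.63 CPM in RGS4KO CFA, 29.4 ± 0.952 CPM in WT CFA, 29.6 ± 0.844 CPM in RGS4KO naive and 29 ± 0.847 CPM in WT naive libraries. The share of Mfap1b in that sum was 49.9% ± 1.38 in RGS4KO CFA, 41.8% ± 2.3 in WT CFA, 49.3% ± 2.66 in RGS4KO naive and 45.3% ± 2.33 in WT naive libraries. The annotated coding sequences, of 1320 bases each, were identical, and the whole transcripts were 96.34% identical over 3278 aligned bases. Uniquely aligned reads can therefore tell the pair apart only outside the coding sequence, and the values of either gene alone are uncertain. Their promoter windows were alike in 260 of 293 aligned bases. The 250 bases before each start are shown to let the near copies be compared, Mfap1a (chr2:121506657-121506906) and Mfap1b (chr2:121474024-121474273), both on the minus strand, with the same motifs in capitals on either strand.
Mfap1a: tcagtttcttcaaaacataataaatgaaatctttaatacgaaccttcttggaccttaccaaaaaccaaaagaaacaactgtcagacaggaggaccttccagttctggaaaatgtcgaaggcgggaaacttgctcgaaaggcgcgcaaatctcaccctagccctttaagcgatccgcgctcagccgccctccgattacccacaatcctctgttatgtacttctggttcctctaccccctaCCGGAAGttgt
Mfap1b: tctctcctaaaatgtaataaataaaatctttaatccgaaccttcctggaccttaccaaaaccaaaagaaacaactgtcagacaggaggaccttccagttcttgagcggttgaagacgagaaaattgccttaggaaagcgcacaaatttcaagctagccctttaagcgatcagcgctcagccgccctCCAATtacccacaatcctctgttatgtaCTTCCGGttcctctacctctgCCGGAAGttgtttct
Zfp106, an RNA-binding zinc finger protein needed by motor neurons in mice, was the lower member after CFA, at 264 to 281 CPM in RGS4KO and 291 to 305 CPM in WT libraries. Rpap1, a partner of RNA polymerase II, was the lower member in naive mice, at 24.7 to 27.5 CPM in RGS4KO and 29.9 to 31.7 CPM in WT libraries.

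**Figure D3:**
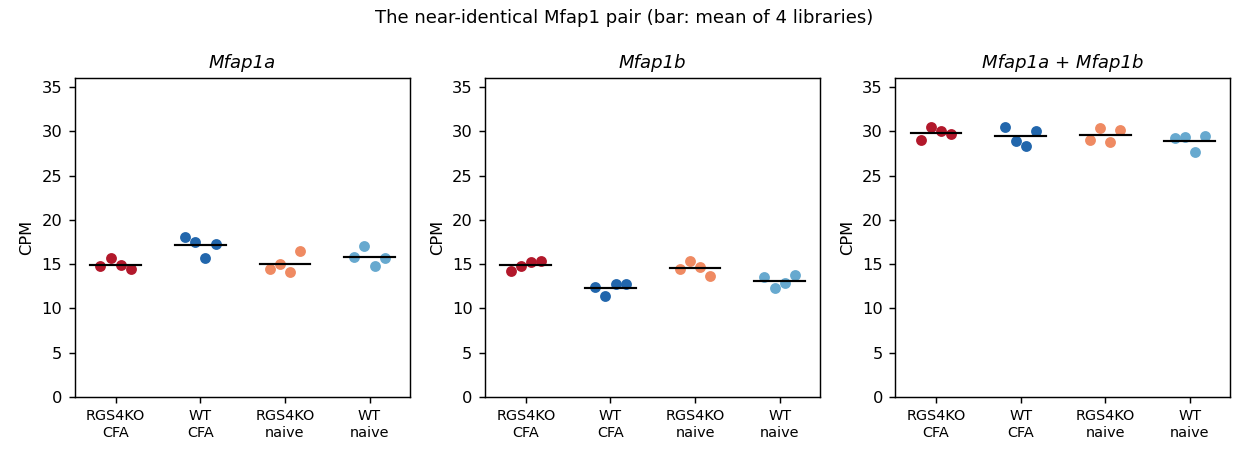
CPM of Mfap1a (left), Mfap1b (middle) and their sum (right), with a point per library and bars at the mean of 4 libraries, in the columns RGS4KO CFA, WT CFA, RGS4KO naive and WT naive. Means of Mfap1b are higher and those of Mfap1a lower in RGS4KO, while the sum stays between 27.7 and 30.5 CPM.

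Among 11 listed members for membrane traffic and the lysosome, 2 were lower after CFA (background 0.954%). On average 4 were lower (background 1.99%), and 0 were higher. Tmem87a, a membrane protein of the Golgi, was at 34.6, 36.6, 39 and 36.2 CPM in RGS4KO CFA libraries, against 45.5, 46.7, 43.1 and 45.4 CPM in WT CFA libraries. Without CFA, Tmem87a was at 38.4, 37.3, 34.9 and 37.5 CPM in RGS4KO libraries, against 38.2, 41.5, 41.1 and 39.2 CPM in WT libraries. The genotypes were apart after CFA and touched in naive mice. Bloc1s6 (pallidin), a subunit of the complex that builds lysosome-related organelles, was lower after CFA, at 30.9 to 32.7 CPM in RGS4KO and 33.8 to 40.6 CPM in WT libraries. Srp14, a protein of the signal recognition particle, and Zfyve19, which acts in the last step of cell division, were lower on average, with log2 changes of -0.15 and -0.16. Vps18 and Vps39, core and HOPS subunits of the tethers that fuse endosomes and lysosomes, had log2 changes between -0.04 and 0.06 in both treatments. Of the 8 genes of those tethers, 1 was called, Tgfbrap1 outside the block, which was lower in naive RGS4KO libraries with a log2 change of -0.13 (adjusted p = 0.0235).

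Of the 18 listed kinases, receptors and signalling genes, 1 was lower after CFA, and 1 was higher and 1 lower in naive mice. Mapkbp1, a scaffold of JNK signalling, was at 61.8, 66, 64.3 and 63.8 CPM in RGS4KO CFA libraries, against 77.7, 75.9, 65.4 and 76.8 CPM in WT CFA libraries. Naive levels of Mapkbp1 were 62, 58.3, 65.5 and 55.6 CPM in RGS4KO libraries, against 67.4, 72.2, 72.6 and 71.2 CPM in WT libraries. After CFA the genotypes touched at WT library 11, and in naive mice they were apart. Ttbk2, a tau tubulin kinase that starts cilium formation, was higher in naive mice, at 223 to 251 CPM in RGS4KO and 209 to 215 CPM in WT libraries. After CFA the level of Ttbk2 was 224.0 ± 3.43 CPM in RGS4KO and 222.0 ± 7.14 CPM in WT libraries. Ttbk2 overlaps Cdan1 in position. Ltk, a receptor tyrosine kinase, had log2 changes of 0.17 and 0.04 and was not called.

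Of 9 listed members for neuronal structure and adhesion, 1 was higher after CFA, 0 were called in naive mice and 2 were higher on average. Spg11 (spatacsin), which renews lysosomes in neurons, was at 38.5, 40.9, 40.5 and 39.3 CPM in RGS4KO CFA libraries, against 33.1, 32.2, 37 and 33.1 CPM in WT CFA libraries. Naive levels of Spg11 were 39.3, 38.8, 38.6 and 38.7 CPM in RGS4KO libraries, against 36, 36.9, 38.5 and 37.9 CPM in WT libraries. The RGS4KO libraries lay above the WT libraries in both treatments, by a narrow margin in naive mice. Spg11 overlaps Eif3j1 in position. Stard9, a kinesin of the centrosome, was higher on average, at 67.1 ± 6.24 CPM in RGS4KO CFA, 60.1 ± 5.43 CPM in WT CFA, 71.9 ± 1.89 CPM in RGS4KO naive and 61.6 ± 4.89 CPM in WT naive libraries. Stard9 lost that call in 11 of 16 fits that left out 1 library, and it overlaps Cdan1 in position. Map1a, the microtubule scaffold of dendrites and the member with the highest level per length at 151 CPM per kb, was named after its values were seen. It had log2 changes of 0.00 after CFA and 0.03 in naive mice.

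Of 10 listed members for protein folding, turnover and translation, 2 were higher after CFA (background 0.649%). On average 3 were higher (background 1.74%), and 0 were lower. Tgm7, a transglutaminase, was at 0.671 to 0.938 CPM in RGS4KO CFA and 0.165 to 0.466 CPM in WT CFA libraries, with a log2 change of 1.42 (SE 0.29). B2m, the light chain of MHC class I, was at 65.1, 58.1, 63 and 61.1 CPM in RGS4KO CFA libraries, against 48.9, 50.6, 58.3 and 50.8 CPM in WT CFA libraries. Without CFA, B2m was at 56.3, 53.5, 55.5 and 59.9 CPM in RGS4KO libraries, against 53.3, 52.6, 49.1 and 52.7 CPM in WT libraries. The genotypes touched after CFA at WT library 11 and were narrowly apart in naive mice. Its log2 change was 0.25 (SE 0.05) after CFA, which was called, and 0.12 (SE 0.05) in naive mice, which was not. Of the 14 tested genes of MHC class I assembly, B2m was the only one called by genotype, and the heavy chain genes H2-K1 and H2-D1 had log2 changes of 0.02 and -0.04 after CFA. The microglial markers held between 218 and 225 CPM in RGS4KO CFA and 208 and 223 CPM in WT CFA libraries, and 0 of the 8 were called. Eif3j1, a subunit of translation initiation factor eIF3, was higher on average with a log2 change of 0.25. Ccdc9b, which no list held, was lower after CFA, at 10.8 to 12.6 CPM in RGS4KO and 13.3 to 14.7 CPM in WT libraries.

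WT libraries of the same treatment differed among themselves at the called members. Among the 4 WT CFA libraries, library 11 was the nearest to the RGS4KO CFA mean for 14 of the 15 members called after CFA, and for 53 of all 103 members. The same library was the nearest for 98 of 279 called genes outside the block and for 23.1% of all tested genes. For 11 of those 15 members library 11 lay within the range of the WT naive libraries, against 2, 1 and 4 members for libraries 9, 10 and 12. Over all tested genes the shares within that range were 54%, 49.9%, 51.3% and 53.5% for libraries 9, 10, 11 and 12. The 15 were picked for a difference of WT from RGS4KO libraries after CFA, which bears on these counts. In naive mice, WT library 2 was the farthest from the RGS4KO mean for 17 of the 23 members called on average and for 48 of all members, against 29.2% of all tested genes. For Pla2g4e the WT values were thus ordered with libraries 9, 10 and 12 at the top, then library 2 of the naive group, then the other naive libraries and library 11. In CFA mice, the spread between libraries (SD of log2 CPM) was larger in WT than in RGS4KO for 18 of the 23 members called on average, against 58.8% of the other members, 55.9% of called genes outside the block and 44.9% of all tested genes. In naive mice it was larger in WT for 14 of the 23, against 50% of the other members, 44.3% of called genes outside the block and 37% of all tested genes. These members were called on the same values, and no test was made. Without WT CFA library 11 the members called after CFA numbered 20, of which 14 were among the 15. Calls over all tested genes numbered 294 with and without that library. Without WT naive library 2 the members called in naive mice numbered 0, and calls over all tested genes 166, against 266 with it. The members called also numbered 0 without RGS4KO naive library 6, and 1 to 4 when any other naive library was left out.

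**Figure D4:**
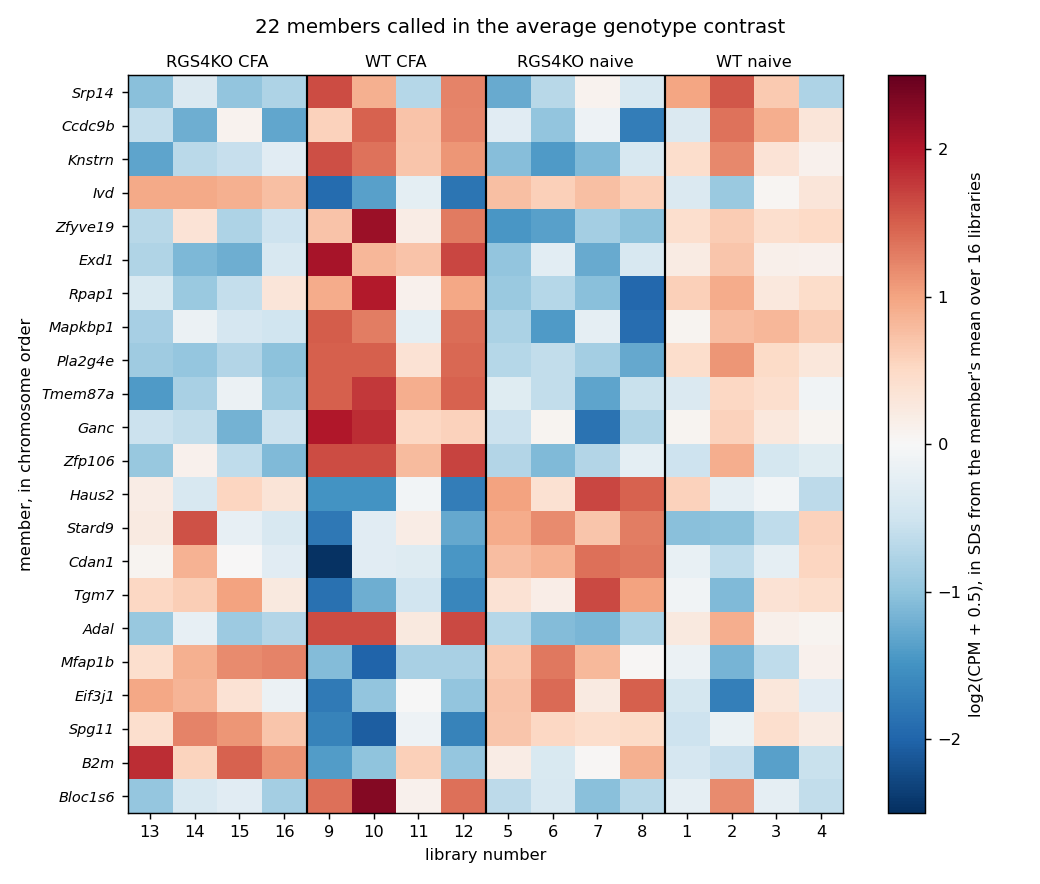
Of the members called in the average genotype contrast, 22 are drawn (rows, in chromosome order) in all 16 libraries (columns, grouped as RGS4KO CFA, WT CFA, RGS4KO naive and WT naive), coloured by log2(CPM + 0.5) in SDs from the mean of the member over libraries. WT CFA libraries 9, 10 and 12 hold most of the strongest colours, and library 11 is paler.

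**Figure D5:**
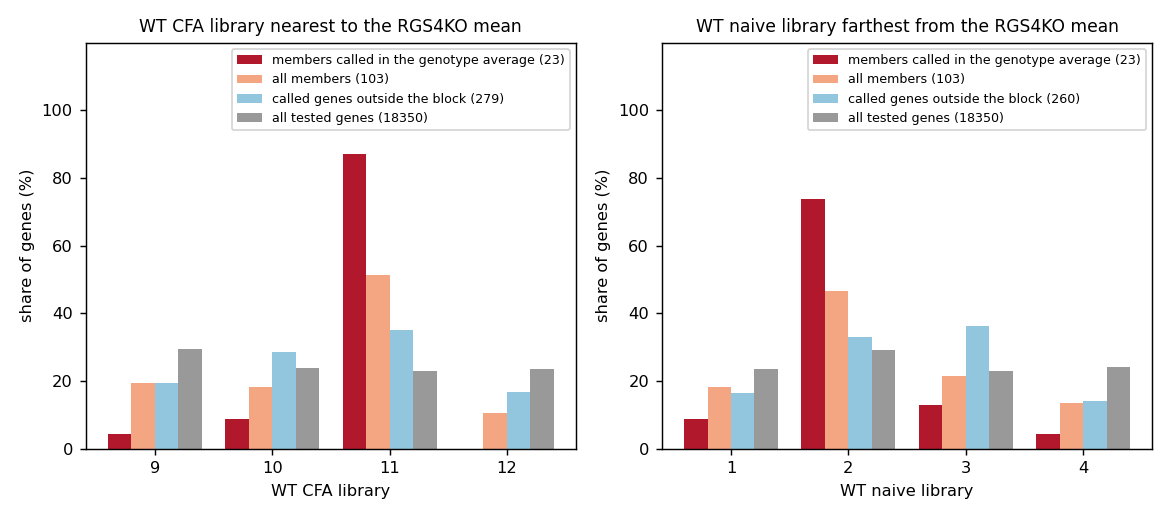
Share of genes (%) for which each WT CFA library was the nearest to the RGS4KO CFA mean (left) and each WT naive library was the farthest from the RGS4KO naive mean (right). Bars are, in order, the 23 members called on average, all 103 members, called genes outside the block and all 18350 tested genes. Library 11 takes 87% and library 2 takes 73.9% of the 23 members.

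The comparison of CFA with naive mice within a genotype was not a contrast that chose the block, but it uses the same libraries, so its tests over all genes are not independent of that choice. In RGS4KO mice 0 of 103 members were called, against 0.185% of all tested genes, with 6 members at an unadjusted p under 0.05 (background 7.81%). DESeq2 also called 0 members, against 91 calls over all tested genes (34 by edgeR). In WT mice 4 members were called, against 2.23% of all tested genes, and all 4 were higher after CFA (background 1.42%). Pdia3, a disulfide isomerase of the endoplasmic reticulum that helps load MHC class I, was at 264, 252, 250.0 and 256 CPM in WT CFA libraries, against 237, 228, 225 and 222 CPM in WT naive libraries. All 4 CFA libraries were above all 4 naive ones, with a log2 change of 0.16 (SE 0.03, edgeR adjusted p = 0.0109). Frmd5, a FERM domain protein of cell contacts, was at 63.6, 66.6, 67.3 and 65.4 CPM in WT CFA libraries, against 59.1, 51.2, 55.5 and 57.1 CPM in WT naive libraries (log2 change 0.24, SE 0.05, edgeR adjusted p = 0.0168). The long intergenic RNA 1700020I14Rik was at 457, 513, 494 and 492 CPM in WT CFA libraries, against 393, 393, 377 and 406 CPM in WT naive libraries (log2 change 0.32, SE 0.07, edgeR adjusted p = 0.0356). Tmem87a had a log2 change of 0.17 (SE 0.04, edgeR adjusted p = 0.0303). In none of these 4 did WT CFA and WT naive libraries overlap, but the 4 were called on these same values. The share of all tested genes without such overlap was not computed, so nothing is read from it. In RGS4KO mice the same contrast gave log2 changes of 0.08 for Pdia3, -0.00 for Frmd5, -0.06 for 1700020I14Rik and -0.03 for Tmem87a. Pdia3 was the only one of the 4 called in every fit that left out 1 library, and in the fit with 3 marker scores 0 of all tested genes were called, against 409 without the scores. In that fit the log2 changes were 0.17 for Pdia3, 0.11 for Frmd5, 0.25 for 1700020I14Rik and 0.25 for Tmem87a. Without WT CFA library 11 the members called for CFA in WT numbered 9, against 210 calls over all tested genes (409 with it). Among the 9, Pla2g4e (log2 change 0.91) and Adal (0.26) were higher and Ivd (-0.28) and Spg11 (-0.19) lower after CFA in WT. Library 11 was singled out for lying nearest to RGS4KO at called members. Leaving it out therefore enlarges their change in WT, and nothing is read from these calls.

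The difference between the genotype effects after CFA and in naive mice was fitted as an interaction. It is made of both contrasts that chose the block, so its values for members are a description, and nothing is read from their share. It was called for 0 members by edgeR, against 0.0654% of all tested genes, with 19 members at an unadjusted p under 0.05 (background 9.86%). DESeq2 called 1, 1700020I14Rik, with a log2 value of -0.38, against 87 calls over all tested genes (12 by edgeR). The interaction by edgeR was -0.20 (SE 0.06) for Tmem87a, -0.24 (SE 0.07) for Frmd5, 0.24 (SE 0.08) for Ivd and -0.75 (SE 0.41) for Pla2g4e. The genotype changes of members were therefore not shown to differ between treatments.

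At the edges of the block, Zfp770 (114.19 Mb) and Dph6 (114.52 Mb) lay just below it, with log2 genotype changes after CFA of -0.05 and -0.08, and BC052040 and Meis2 just inside it, with -0.06 and 0.32. Meis2, a homeobox transcription factor, was at 61 to 70.9 CPM in RGS4KO CFA and 46.4 to 55.5 CPM in WT CFA libraries and was not called. At the upper edge Sqor, which oxidises sulfide in mitochondria, and the axon guidance gene Sema6d were the last members, with -0.01 and -0.12, and Slc24a5 and Myef2 the first genes outside, with 0.11 and -0.04. At the limit of 0.5 CPM, Gm22865 at 0.403 CPM and Duox1 at 0.467 CPM were left out, with log2 changes after CFA of 0.99 and 0.30, while Patl2 at 0.598 CPM and Tgm7 at 0.633 CPM were kept. Gm22865, which overlaps Tmem62 in position, was called after CFA (edgeR adjusted p = 0.0484) but not in naive mice. Duox1 was called in neither.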

How the data were processed

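Gene expression was measured by mRNA sequencing in 16 libraries, 4 in each of 4 groups taken from the genotype and treatment labels. Per the labels' protocols, 4 punches of 12 gauge from 2 mice were pooled into a library, TRIzol served for the RNA and version 2 of the TruSeq RNA kit for the library, a kit that keeps no strand. The authors deposited raw counts of reads per Ensembl gene. TopHat, DESeq2 and the build mm10 appear in the submitters' processing notes. Annotation release and strand setting: not given in the sources used here. The 5 summary lines of each deposited table, 38.0% to 39.89% of listed reads, entered neither library sizes nor tests.

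The block runs from 115 Mb to 125 Mb. Positions and symbols came from GENCODE M21 (mm10), which matched 37607 of 38924 IDs. Of the members, 41 overlap another tested gene in position, and their counts are uncertain. Among the called ones are Tmem87a (with Ganc), Eif3j1 (Spg11), Mapkbp1 (Gm13999), Haus2 (Lrrc57), Zfyve19 (Dnajc17), B2m (Patl2) and Pdia3 (Catsper2). Counts were fitted with edgeR 4.0.16 (R 4.3.3), using TMM factors, filterByExpr at a minimum count of 10, and robust quasi-likelihood fits of all 16 libraries, each group having its own mean, with 6 contrasts. P-values were two-sided and Benjamini-Hochberg adjusted over 18350 genes. Levels are CPM on TMM-scaled sizes, and ± is the SD. Changes are the model's log2 values. Single levels were compared by exact permutation, for which 4 against 4 allow no p below 0.0286. Total counts of 18.1 M to 78.8 M limit the precision of lowly expressed members. Replicates differed by more than sampling noise (chi-square per degree of freedom 3.55 to 13.7), so none was merged. The script was tested on simulated counts. Promoters came from RefSeq (GRCm38.p6) and were aligned with Biopython 1.88.

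The members, the role lists, the markers and the rule for named genes were chosen with earlier results of these data known. Named were members called by genotype with at least 1 CPM in the higher group, members whose genotypes did not overlap in both treatments, up to 3 members of each role list with the lowest p in the average genotype contrast, members called in another contrast, the 2 genes nearest to each edge, and Rgs4. Alternatives were other size factors, DESeq2 1.42.0, other filters, 2 groups only, each library left out, thinned counts, marker scores as covariates and other member rules. Leaving out RGS4KO naive libraries 7 and 8 together, and Rgs4 without TMM scaling, were added after seeing the data. Of the named members, 1 is not reported here.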

Additional observations from a re-analysis of the deposited data

Results flagged for a closer look

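In 11 cases a named member had 1 library far from the 3 others of its group. The gap to the nearest, as a share of the group's range, was over Dixon's critical value for 4 samples, which chance passes in about 1 of 20 groups, and 21 of the 412 groups of all members did so. WT CFA library 11 held 6 of those 21 and was set apart for 5 named members, each time on the side of the RGS4KO libraries. It was lowest for Pla2g4e at 26.5 CPM (others 58 to 60.9 CPM), for Adal at 28.4 CPM (34.5 to 34.6 CPM), for Mapkbp1 at 65.4 CPM (75.9 to 77.7 CPM) and for Zfp106 at 291 CPM (304 to 305 CPM), and highest for Haus2 at 24.7 CPM (21.7 to 22.1 CPM). WT naive library 2, which also had the Y-linked RNA, was highest for Exd1 at 2.81 CPM (2.34 to 2.41 CPM) and for Zfp106 at 293 CPM (272 to 275 CPM). WT naive library 4 was highest for Meis2 at 67.3 CPM (52.8 to 53.6 CPM), and WT naive library 3 was lowest for B2m at 49.1 CPM (52.6 to 53.3 CPM). RGS4KO CFA library 16 was lowest for Ivd at 107 CPM (109 to 109.9 CPM), and library 15 of that group was lowest for Ganc at 17.3 CPM (18.1 to 18.2 CPM).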

How the results depend on the processing

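No paired analysis was possible because no replicate number is shared between groups. Of 160 recomputed counts of members, 136 were within 1.5 times the reported count and 24 were not. With 1 library left out, the members called by genotype numbered 10 to 20 after CFA, 0 to 7 in naive mice and 20 to 26 on average. The lowest and highest values after CFA came without RGS4KO CFA library 13 and without WT CFA library 11, and the naive count was 0 without WT naive library 2 or without RGS4KO naive library 6. Over all tested genes these fits called 218, 294, 166 and 135 genes, in that order. With all libraries the calls numbered 294 after CFA and 266 in naive mice. Calls held in every fit that left out 1 library for 10 of 15 members after CFA, 0 of 6 in naive mice and 20 of 23 on average. After CFA the call was lost in 12 of 16 fits for Mapkbp1, 10 for Ccdc9b, 6 for Ganc, 3 for Bloc1s6 and 1 for B2m. The naive call was lost in 12 fits for Ttbk2, 8 for Rpap1 and Adal, 6 for Mapkbp1 and 4 for Pla2g4e and Knstrn. The average call was lost in 12 for Cdan1 and 11 for Srp14 and Stard9. With counts thinned to the shallowest library, 3 members were called in naive mice and 15 on average. With 3 marker scores as covariates, 0 were called in naive mice and 0 for CFA in WT. Calls over all tested genes then numbered 63 and 0, against 266 and 409 without the scores. In that fit the naive log2 change of Knstrn was -0.60 (-0.91 without) and that of Rpap1 was -0.20 (-0.21 without). Without RGS4KO naive libraries 7 and 8, chosen after seeing the data, 0 were called in naive mice. Calls over all tested genes then numbered 92, against 266 with both libraries. Among the 62 members without position overlap, 8 were called after CFA, 2 in naive mice, 10 on average and 2 for CFA in WT. For CFA in WT the count was 2 to 9 with 1 library left out and 10 with DESeq2, and DESeq2 called 1 interaction. The cause of these differences was not tested.

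Among single named members, 765 of 943 recomputed values kept their direction and side of the threshold, 160 lost and 5 gained a call, and 13 turned, all in members near 0. On average over both genotype contrasts, Fsip1 was 0.01 with thinned counts, Patl2 was -0.11 to 0.08 without single libraries and 0.06 with marker scores, and Sema6d was -0.01 to 0.03 without single libraries. The difference of Rgs4 (RGS4KO minus WT, CPM) was -8.01 to -2.78 after CFA with 1 library left out. The naive difference was -0.51 without TMM scaling, chosen after seeing the data, and -0.76 to 1.85 with 1 library left out. The depth of 18.1 M counts in the shallowest library limits members under 1 CPM.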
